A study of Mus musculus with 5 samples.

Results

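The nuclear-encoded genes of the mitochondrial respiratory chain were described in 5 RNA-seq libraries of mouse embryonic fibroblasts (MEFs), connective-tissue cells cultured from embryos. Members were the single-gene loci whose symbol begins with Nduf, with Sdh followed by a, b, c or d, with Uqcr, with Cox4 to Cox8 or with Atp5. The 94 loci found gave 87 genes, 1 locus being kept for each symbol, out of 21372 gene symbols in the tables. They comprised 67 subunits (35 of complex I, 4 of complex II, 7 of complex III, 9 of complex IV and 12 of complex V). There were also 9 assembly factors of complexes I and II, 7 tissue isoforms of complex IV, and Ndufa4 with its paralog Ndufa4l2. Atp5s and Atp5sl, which match the prefix, were placed in none of these groups.

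The respiratory chain oxidises NADH and succinate in the inner mitochondrial membrane and passes their electrons to oxygen. Complex I is the NADH dehydrogenase, complex II the succinate dehydrogenase, complex III the cytochrome bc1 complex and complex IV the cytochrome c oxidase, and complexes I, III and IV pump protons whose return drives ATP synthase, complex V. Most subunits are encoded in the nucleus and imported, a few are encoded in mitochondrial DNA, and assembly factors help to build the complexes without being part of the finished enzyme.

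The study varied Meis1 and Prep1 (gene Pknox1), related homeodomain transcription factors of the TALE class. Lines of Prep1-hypomorphic MEFs, whose genotype lowers Prep1, carried an empty vector (EV) or overexpressed Meis1 (M), Prep1 (P) or Meis1 with Prep1 (MP), and the fifth line was labelled Prep1 wild-type (WT), with no vector named. All cells were C57BL/6 at passage 30, derived from E14.5 embryos, and the growth protocol names hypomorphic embryos for every sample, the WT line included. With 1 library in each group nothing could be tested against replicates, p-values are not given, and what is compared are single libraries, not conditions. WT and EV also differ by vector infection and by line, which cannot be told apart from the genotype.

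The authors' FPKM values differed in overall level, with an upper quartile of 157 FPKM in EV, 429 in M and between 9.63 and 12.2 in the other 3 libraries. Levels are therefore given in scaled units, with the upper quartile of each library set to 10, and differences as log2((units + 1)/(units + 1)), where 0.585 or more in size is called 1.5-fold. This is a per-length unit, so levels can be compared between genes. The values were narrowly spread: the 99th percentile lay between 1.73 and 2.01 times the upper quartile, so differences between well expressed genes may be compressed. Meis1 was at 8.32 units in EV and higher in M (16.8), MP (15.4) and WT (12.4). Pknox1 was at 2.16 units in EV and 11.02 in WT, but only 0.554 in P and 0.569 in MP, which goes against the labels P and MP, and these are called the libraries labelled P and MP. Of 11 fibroblast markers, 9 stood at 5 units or more in all libraries, and 9 of 11 muscle, 5 of 6 epithelial, 4 of 4 endothelial and 3 of 4 leukocyte markers stood under 1 unit in all of them.

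Respiratory chain subunits were well expressed in all 5 libraries, with the highest median in EV and the lowest in WT as scaled here. The median of the 67 subunits was 13.7 units in EV, 12.2 in M, 10.5 in the library labelled P, 12.1 in the library labelled MP and 9.33 in WT. All 67 reached 1 unit in some library, as did all 9 assembly factors, against 1 of the 7 tissue isoforms. In total 81 of the 87 members did.

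Complex I had a median of 14.48 units in EV and 10.5 in WT. Its lowest subunit by mean level was Ndufa11, an accessory subunit, at 2.89 units, and its highest was Ndufab1, the mitochondrial acyl carrier protein, at 17.7. Complex II was narrow, from a mean of 12.2 units for Sdhb, the iron-sulfur subunit, to 14.1 for Sdha, the flavoprotein that oxidises succinate. In complex III the means ran from 8.67 units for Uqcrb to 13.7 for the core protein Uqcrc1, in complex IV from 5.80 for Cox6c to 14.0 for Cox8a, and in complex V from 5.955 for Atp5f1 to 14.6 for Atp5d. Over all libraries the subunits spanned 2.16 to 19.55 units, so most lay near the upper quartile of a library. Such a range was not particular to them: of all genes at 5 units or more, 96.6% in EV and 98.9% in WT lay between 5 and 20 units.

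**Figure D1:**
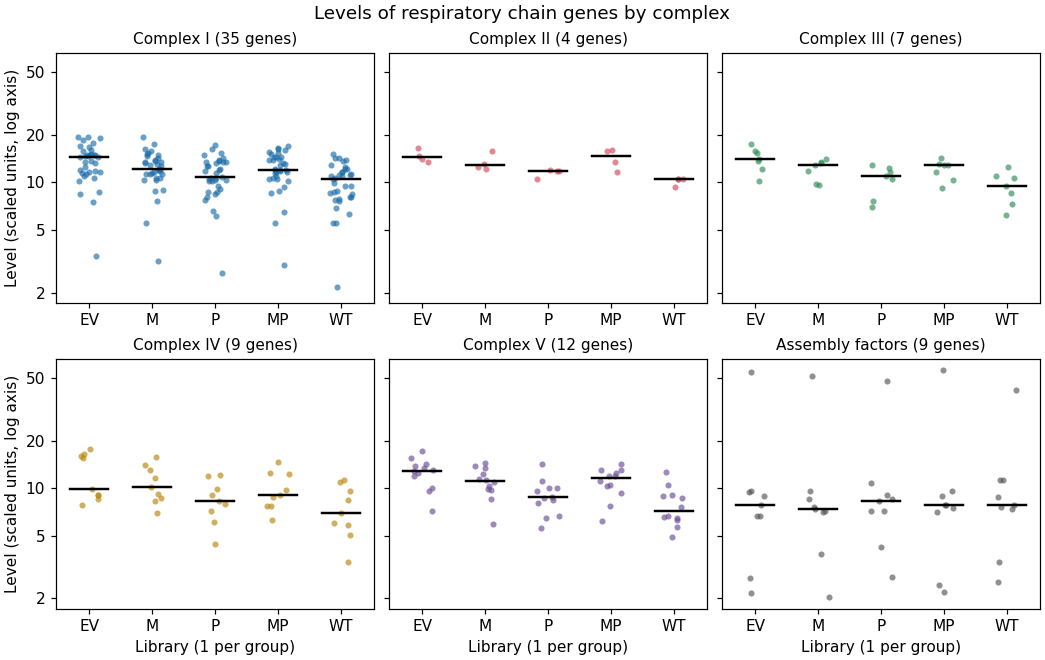
Levels of the subunits of complexes I to V and of the assembly factors, each point 1 gene in 1 library, in scaled units on a log axis, with a black line at the group's median. The median of each complex is lower in WT than in EV (complex V at 12.95 in EV and 7.14 in WT), while that of the assembly factors is 7.81 in EV and 7.86 in WT.

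Of the 7 comparisons made in scaled units, WT against EV gave the largest median difference over the members, with the subunits lower in WT. All 67 subunits lay below 0, with a median log2 ratio of -0.48, and over the 80 members kept at 1 unit or more in either library the median was -0.44 against -0.07 over the 11656 genes kept. Of those members 71 lay below 0, against 55.9% of all genes. Of the members 25 were at least 1.5-fold lower in WT, against 9.52% of all genes, and all 25 were subunits: 7 of complex I, 1 of complex II, 3 of complex III, 6 of complex IV and 8 of complex V. Only Cox6a2 and Atp5s were at least 1.5-fold higher, against 13.6% of all genes. Cox6a2 was kept only through its 1.41 units in WT, so it could only come out higher there. None of the 80 members was 2-fold apart in either direction, where 9.51% of all genes were.

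As scaled here, the members tended to one order across the 5 libraries. EV held the highest value in 48 of the 81 members that reached 1 unit, against 25.8% of all genes, and WT held the lowest in 61 of them, against 41.3%. WT was the lowest library for 57 of 67 subunits, including 9 of 9 in complex IV and 12 of 12 in complex V, and for 2 of 9 assembly factors. With each library scaled to its median instead, all genes shifted by -0.37 between EV and WT and the subunits by -0.775. With quantile normalization the subunits stood at -0.51 and all genes at -0.02. Median scaling also placed the subunits of the library labelled MP above EV, at 0.24, with all genes at 0.36. The place of EV as the highest library thus depended on the scaling.

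Over all genes the WT to EV ratio varied with level and transcript length, in which the members differ from other genes, while the members' own median varied less. The median annotated transcript of the members is 955 bases, against 3179 over all genes kept. Among all genes with a mean of 10 units or more the median WT to EV ratio was -0.22 and 8.16% were 1.5-fold lower, against -0.45 and 16 of 51 members, and below that level it was 0.22 and 10.8%, against -0.43 and 9 of 29 members. Among genes with transcripts of 1000 bases or less it was -0.25 and 21.3%, against -0.49 and 15 of 39 members, and with longer transcripts it was -0.07 and 8.49%, against -0.36 and 10 of 41 members. For short transcripts at the higher level the gap was narrower, at -0.35 and 25.8% for 256 genes against -0.45 and 9 of the 26 members among them. The 11 fibroblast markers had a median of -0.46, with 3 at least 1.5-fold lower and 2 higher, and their summed level was 142 units in EV and 113 in WT, the highest and lowest of the 5 libraries. The part of level, length and fibroblast genes in the members' ratios was not tested. In bulk RNA, fewer cells of a type and less RNA per cell cannot be told apart.

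**Figure D2:**
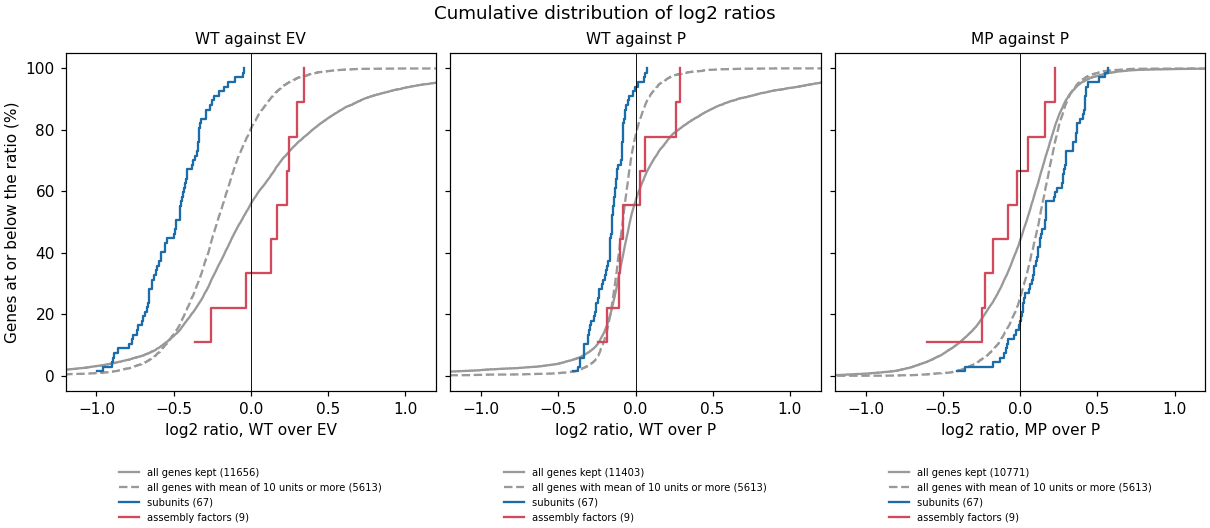
Cumulative share of genes (%) at or below each log2 ratio, for WT over EV, WT over the library labelled P, and the library labelled MP over the library labelled P; grey lines show all genes kept (solid) and those with a mean of 10 units or more (dashed). The subunit curve (blue) lies left of both grey curves over most of its range in WT against EV, with a median of -0.48, and the assembly factors (red) lie right of the subunits there, with a median of 0.17.

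Within complex I, the core subunits, which carry out electron transfer, differed widely in their WT to EV ratios. Ndufv2, which stood at 8.76 units in EV, 8.97 in M, 6.57 in the library labelled P, 8.59 in the library labelled MP and 5.53 in WT, was at -0.58. WT lay below every other library for this gene. Ndufs1 and Ndufv1, which binds the flavin that accepts electrons from NADH, were both at -0.29, Ndufs7 at -0.20 and Ndufs3 at -0.10. Ndufs3 hardly varied, at 11.9, 11.99, 12.8, 12.1 and 11.02 units in the same order of libraries.

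Accessory subunits of complex I surround the core and help to hold it together. The lowest WT to EV ratios among them were those of Ndufa6 (-0.71), Ndufb9 (-0.70), Ndufs5 (-0.69), Ndufa5 (-0.66) and Ndufa12 (-0.64). Ndufb9 stood at 14.8 units in EV, 12.99 in M, 8.76 in the library labelled P, 12.2 in the library labelled MP and 8.72 in WT, so that P and WT sat together below the other 3. At the other end, Ndufa13 (also known as Grim-19) and Ndufc1 had ratios of -0.048 and -0.045. Ndufa13 had another pattern, at 8.45 units in EV, 7.70 in P and 8.14 in WT but 5.57 in M and 5.535 in MP, so that both libraries labelled with Meis1 overexpression were low. Its log2 ratio of -0.53 for M over EV was the lowest of all members in that comparison.

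All 4 complex II subunits were lowest in WT. Sdha stood at 16.5 units in EV, 15.9 in M, 11.9 in the library labelled P, 15.9 in the library labelled MP and 10.5 in WT, with a WT to EV ratio of -0.61. Sdhd, a membrane anchor, stood at 14.2, 13.1, 10.6, 16.2 and 9.33 units in the same order, with a ratio of -0.56. The iron-sulfur subunit Sdhb (-0.45) and the other anchor, Sdhc (-0.33), were closer to EV. For Sdhd the library labelled MP was the highest of the 5, which was the case for no other complex II subunit.

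In complex III, Uqcrh, the hinge protein that contacts cytochrome c1, stood at 12.1 units in EV, 9.78 in M, 7.64 in the library labelled P, 11.6 in the library labelled MP and 6.21 in WT, a WT to EV ratio of -0.86. Uqcr10 was at -0.77 and Uqcrc1 at -0.63. Uqcrfs1, the Rieske iron-sulfur protein that takes electrons from ubiquinol, was at -0.495, from 13.7 units in EV to 9.45 in WT. Uqcrq was nearest to EV, at -0.32. Only Uqcrb was lowest elsewhere, at 6.96 units in the library labelled P against 7.31 in WT.

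Complex IV and complex V had the lowest medians, both at -0.66 for WT over EV, against -0.42 for complex I, -0.50 for complex II and -0.495 for complex III. Cox6c had the lowest ratio of all members, -1 after rounding and just short of 2-fold. It stood at 7.83 units in EV, 6.995 in M, 4.46 in the library labelled P, 6.30 in the library labelled MP and 3.42 in WT. Cox4i1, the widespread form of a subunit that regulates the enzyme's activity, stood at 16.6, 11.6, 9.08, 12.6 and 8.49 units in the same order, a ratio of -0.89. Cox4i1 was thus well above every other library in EV, and even M lay at -0.48 relative to EV. Cox7b (-0.73), Cox7a2l, a supercomplex factor (-0.67), Cox6a1 (-0.66) and Cox5b (-0.64) also passed 1.5-fold. Cox8a, Cox5a and Cox7c did not, at -0.46, -0.44 and -0.34. The catalytic subunits of complex IV are encoded in mitochondrial DNA and were not analysed here.

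In complex V, Atp5a1, the alpha subunit of the catalytic F1 head, stood at 13.5 units in EV, 11.2 in M, 8.38 in the library labelled P, 10.5 in the library labelled MP and 6.45 in WT. Its ratio for WT over EV was -0.96, and that of Atp5c1, the gamma subunit of the rotating shaft, was -0.79. Atp5o, the oligomycin-sensitivity subunit of the peripheral stalk, stood at 13.1, 9.97, 8.73, 12.02 and 6.58 units in the same order, a ratio of -0.89. Atp5g1 and Atp5g3, which encode the same proton-carrying ring protein, were at -0.615 and -0.735. The smallest differences in complex V were those of Atp5j2 (-0.26) and Atp5d (-0.41). WT was the lowest library for each of these genes.

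Another 7 loci joined a chain gene with other symbols and were not members. The locus of Atp5b, the catalytic beta subunit, with Mir677 stood at 22.0 units in EV and 18.2 in WT. All 7 joined loci lay below 0 in WT against EV, from -0.26 for that locus to -0.77 for the locus of Mbd3 and Uqcr11. The values of a joined locus cannot be assigned to either gene.

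**Figure D3:**
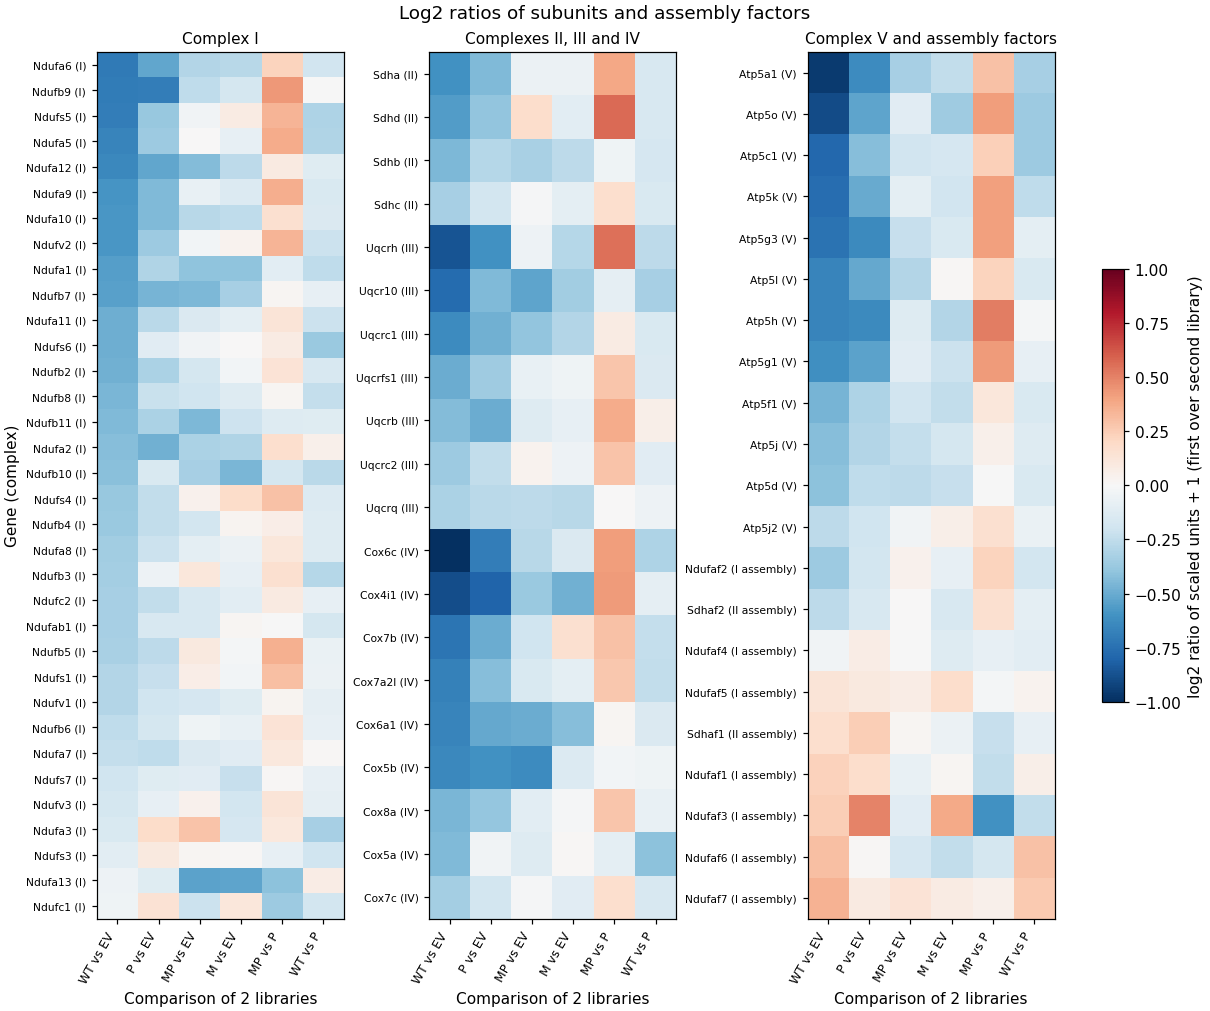
Log2 ratios of scaled units + 1 in 6 comparisons of 2 libraries (columns) for subunits and assembly factors (rows), blue where the first library is lower and red where it is higher. The WT vs EV column is blue for every subunit shown and the MP vs P column, of the libraries so labelled, is mostly red, while 6 of the 9 assembly factors are red in WT vs EV.

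Assembly factors did not share the subunits' lower level in WT. Their median WT to EV ratio was 0.17, with 6 of 9 above 0, although it turned to -0.08 when libraries were scaled to the median and to -0.09 with quantile normalization. The gap between the subunits' and the assembly factors' medians kept its direction, at -0.65 as scaled here, -0.70 with median scaling, -0.42 with quantile normalization and -0.75 on the FPKM as deposited. Ndufaf7, a methyltransferase needed early in the assembly of complex I, stood at 6.71 units in EV, 7.15 in M, 7.18 in the library labelled P, 7.47 in the library labelled MP and 8.80 in WT, a ratio of 0.35. Ndufaf6 was at 0.30, Ndufaf3 at 0.25, Ndufaf1 at 0.23, Sdhaf1, which helps to insert iron-sulfur clusters into Sdhb, at 0.17 and Ndufaf5 at 0.13. Ndufaf4 (-0.03), Sdhaf2 (-0.26) and Ndufaf2 (-0.36) were lower. The median transcript of the assembly factors is 1487 bases, longer than that of the subunits.

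Ndufaf2 was the highest member in all libraries, at 54.5 units in EV, 51.5 in M, 48.0 in the library labelled P, 56.3 in the library labelled MP and 42.2 in WT. The coding gene Smim15 lies within its span in the GENCODE vM21 annotation, and reads of the 2 may not be separated. Overlap of this kind is common here: the spans of 29 of the 87 members overlap another coding gene, including those of Cox6c, Cox4i1, Atp5a1 and Atp5o. Uqcrh and Cox5b, which were 1.5-fold lower in WT as well, overlap no other coding gene.

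Most subunits were also lower in the library labelled P than in EV. Over the 79 members kept, the median log2 ratio to EV was -0.27 against -0.05 for all genes, and 67 lay below 0 against 58.4%. With a mean of 10 units or more the medians were -0.285 for 51 members and -0.13 for all genes. For transcripts of 1000 bases or less at that level they were closer, at -0.31 for 26 members and -0.25 for 256 genes. There 5 members and 9.38% of the genes were at least 1.5-fold lower. Of the members 9 were at least 1.5-fold lower, against 5.14% of all genes, and 0 were 1.5-fold higher, against 2.43%. They included Cox4i1 (-0.80), Cox6c (-0.69), Ndufb9 (-0.69), Atp5h (-0.64), Atp5g3 (-0.64), Atp5a1 (-0.63), Uqcrh (-0.60) and Cox5b (-0.60). By complex the medians were -0.25 for complex I, -0.34 for II, -0.44 for III, -0.50 for IV and -0.51 for V. The assembly factors stood at 0.09, with 7 of 9 above 0, and Ndufaf3 was highest, at 0.49. This comparison and that of WT share the EV library, so they are not independent.

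Set directly against the library labelled P, WT was lower in most members. The median over 80 members was -0.14, against -0.04 for all genes, and 69 lay below 0 against 56.9%. No member was 1.5-fold lower, against 3.37% of all genes. That share was 0.713% at a mean of 10 units or more, where 51 of the members lay, and 5.94% below it. For transcripts of 1000 bases or less at the higher level, the medians were -0.11 for 26 members and -0.09 for all genes. Median scaling moved the median of the 80 members to -0.48, with all genes at -0.38, and the members at least 1.5-fold apart from 1 to 19. The lowest were Cox5a (-0.41), Ndufs6 (-0.37), Atp5c1 (-0.36) and Atp5o (-0.36). Only Cox6a2, again kept through its level in WT alone, was 1.5-fold higher, against 11.3% of all genes. Atp5sl (0.495), Atp5s (0.32), Ndufaf6 (0.29) and Ndufaf7 (0.26) followed.

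Addition of Meis1 was labelled in M and in MP, and the members' median differed in sign between M over EV and MP over P. For M over EV the median was -0.11 over 80 members, against -0.015 for all genes, and 61 lay below 0 against 53.5%. No member was 1.5-fold lower, against 2.73% of all genes, or 1.5-fold higher, against 1.53%. The share of all genes 1.5-fold lower was 0.338% at a mean of 10 units or more, where 51 of the members lay, and 5.15% below it. Cox4i1 (-0.48), Ndufb10 (-0.46), Cox6a1 (-0.43) and Ndufa1 (-0.40) were lowest after Ndufa13, and Ndufaf3 (0.38), Atp5sl (0.29), Ndufs4 (0.18) and Ndufaf5 (0.18) highest. On the FPKM as deposited the median of the members turned to 1.31, as that of all genes did, to 1.26. In scaled units, medians for transcripts of 1000 bases or less were close, at -0.14 for 39 members and -0.12 for all genes. With longer transcripts they were -0.10 for 41 members and -0.01 for all genes.

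For the library labelled MP over the library labelled P the direction was the opposite. The median over 79 members was 0.13 against 0.04 for all genes, and 60 members lay above 0 against 55.8%. The highest were Sdhd (0.57), Uqcrh (0.55), Atp5h (0.51), Ndufb9 (0.44) and Cox4i1 (0.43). Only Ndufaf3, at 4.23 units in P and 2.44 in MP, was 1.5-fold lower, against 5.07% of all genes. That share was 0.624% at a mean of 10 units or more and 9.91% below it. On deposited FPKM the members' median turned to -0.115, with that of all genes at -0.20, so the members stayed above the other genes. In scaled units, medians at a mean of 10 units or more were alike, at 0.126 for 51 members and 0.12 for all genes. Below that level they were 0.143 for 28 members and -0.106 for all genes.

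The gene-by-gene difference between these 2 ratios was above 0 in 68 of 79 members, with a median of 0.27, against 56% and 0.04 for all genes. It was above 0 in 63 of 67 subunits, with a median of 0.29, and in 4 of 9 assembly factors, with a median of -0.03. In complex V it was above 0 in 12 of 12, with a median of 0.47. Members lower in WT than in EV tended to be higher in the library labelled MP than in that labelled P. Across 79 members, which are not independent replicates, Spearman's rho was -0.61 and Pearson's r -0.65, and across 10682 genes they were -0.49 and -0.36. Across the 67 subunits alone rho was -0.53 and r -0.59, so rho was closer to that of all genes. The 2 comparisons share no library, while the members share each library's depth and scaling.

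**Figure D4:**
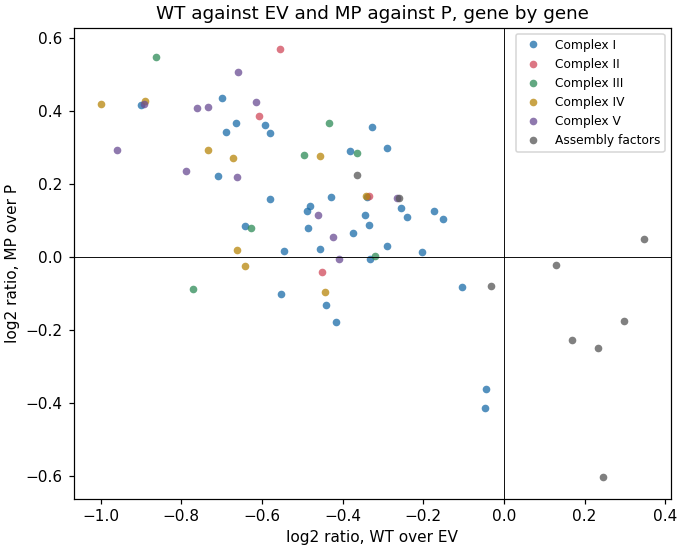
Log2 ratio of WT over EV (x axis) against that of the library labelled MP over the library labelled P (y axis), each point 1 subunit or assembly factor. Uqcrh, at -0.86 on the x axis, lies at 0.55 on the y axis, and the assembly factor Ndufaf3 lies at 0.25 and -0.60.

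The library labelled MP was also compared with EV and M. Over EV its median was -0.13 for 79 members, against -0.04 for all genes, with 62 below 0 against 57.8%, although median scaling turned it to 0.26 with all genes at 0.36. In scaled units, medians for transcripts of 1000 bases or less were -0.15 for 38 members and lower, at -0.21, for all genes. With longer transcripts they were -0.11 for 41 members and -0.02 for all genes. Only Cox5b, at 15.6 units in EV and 14.1 in M against 9.93, 9.745 and 9.63 in P, MP and WT, was 1.5-fold lower in MP than in EV, against 5.02% of all genes. Ndufa13, Uqcr10, Cox6a1 and Ndufb11 followed, at -0.53, -0.52, -0.495 and -0.45. Ndufa3 was highest, at 0.285. Over M the median was -0.03 for 80 members against -0.01 for all genes, with 50 below 0 against 53.5%, and 0 were 1.5-fold lower against 3.14%. The share of all genes 1.5-fold lower was 0.232% at a mean of 10 units or more, where 51 of the members lay, and 6.26% below it. Median scaling turned the members' median over M to 0.32, with all genes at 0.33. The extremes were Cox5b (-0.49) and Ndufaf3 (-0.49) on one side and Ndufa3 (0.45) and Sdhd (0.28) on the other.

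Complex IV exists in tissue-specific forms, and the MEF libraries held the widespread ones. The muscle and heart isoform Cox6a2 was the only one of the 7 tissue isoforms to reach 1 unit, at 1.41 in WT, against 0.389 in EV, 0.168 in M, 0.238 in the library labelled P and 0.102 in the library labelled MP. Its counterpart Cox6a1 stood at 17.9 units in EV and 10.9 in WT. Cox7a1, another muscle isoform, was at 0.951 units in WT and 0.619 in EV. Cox4i2, a lung isoform, was at most 0.459 units, in M, and was listed at 0 in the library labelled MP and in WT. Cox7b2 reached 0.692 units in M and was listed at 0 in P, MP and WT, and Cox8b and Cox8c were listed at 0 in the same 3 libraries. Low values differed between libraries as a whole, with 2.18% of genes listed at 0 in EV and between 9.37% and 27.5% in the others. Of 11 muscle markers, 9 stood under 1 unit in all 5 libraries, Myod1, Myog, Des and Ckm among them. The other 2 did not: Tnnt2 stood between 4.02 units, in the library labelled MP, and 9.44, in EV, with 9.29 in WT, and Acta1 between 0.897 in M and 5.10 in the library labelled P, with 2.96 in WT. The part of muscle genes in the isoforms' levels was not tested.

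**Figure D5:**
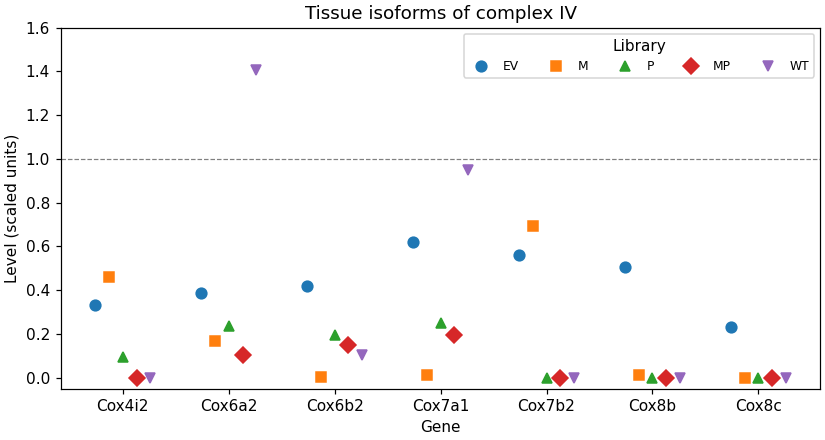
Levels of the 7 tissue isoforms of complex IV in scaled units, 1 symbol per library, with a dashed line at 1 unit. Cox6a2 in WT, at 1.41, is the only value above the line, and Cox7a1 in WT, at 0.951, lies just under it.

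Ndufa4, first described in complex I and later assigned to complex IV, stood at 13.15 units in EV, 12.8 in M, 11.5 in the library labelled P, 11.6 in the library labelled MP and 9.10 in WT, a WT to EV ratio of -0.49. Its paralog Ndufa4l2, known as a hypoxia-induced gene, lay between 0.616 units in WT and 1.05 in M. Atp5s, related to ATP synthase coupling factor B, stood at 3.38 units in EV and 6.10 in WT, a ratio of 0.70. Atp5sl was at 3.38 and 5.29 units, a ratio of 0.52. These 2 genes, placed in none of the groups, thus lay opposite to the subunits.

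Other genes of energy metabolism were read as lists, beside the 9.52% of all genes that were at least 1.5-fold lower in WT than in EV and the 13.6% that were higher. The 15 genes of the citric acid cycle and pyruvate dehydrogenase came closest to the subunits, with a median of -0.41 in WT over EV, 15 of 15 below 0 and 5 at least 1.5-fold lower. Pdha1, a catalytic subunit of pyruvate dehydrogenase, stood at 14.7 units in EV, 13.5 in M, 10.3 in the library labelled P, 14.1 in the library labelled MP and 8.725 in WT, and Idh3b, of the NAD-dependent isocitrate dehydrogenase, went from 14.9 in EV to 9.01 in WT. These 15 genes were also all higher in the library labelled MP than in the library labelled P, with a median of 0.255. The 67 mitochondrial ribosomal proteins, which translate the subunits encoded in mitochondrial DNA, had a median of -0.23 in WT over EV, with 59 below 0 and 3 at least 1.5-fold lower, a smaller share than that of all genes. Glycolysis stood at -0.36, with 4 of 13 lower and 1 higher: Ldha was at -0.65 and the neuronal enolase Eno2 at 1.598. Lower levels in WT were thus also seen in genes of glycolysis, which takes place outside mitochondria.

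Chain genes outside the prefixes, such as cytochrome c (Cycs) and cytochrome c1 (Cyc1), had a median of -0.27 over 13 genes, and 1, Etfb (-0.64), was 1.5-fold lower, a share no larger than that of all genes. Cyc1, a catalytic subunit of complex III, stood at 18.9 units in EV and 13.2 in WT. Of the 13 genes 4 lay above 0, with Coq9 (0.25) and Usmg5 (0.24) highest. Assembly factors of complexes III and IV had a median of -0.02 over 14 genes, with 0 lower by 1.5-fold and 1 higher, the complex III factor Bcs1l at 0.59. Genes that maintain and transcribe mitochondrial DNA stood at 0.05 over 8 genes. Regulators of respiration stood at -0.01 over 8 genes. Among them Nrf1 was at 21.1 units in EV and 18.75 in WT, Gabpa at 11.2 and 11.3, and Yy1 at 13.9 and 14.7. The coactivator Ppargc1a stood at 0.579 units in EV and 1.605 in WT.

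Promoters of respiratory chain genes are known for sites of NRF1, GABPA and YY1. Since subunits moved together, the RefSeq promoter windows of GRCm38.p6, 250 bases before to 50 after the start, were searched on both strands. Windows were held for 71 of the 87 members (77 windows). The NRF1 letters GCGCANGC were in 32.5% of members' windows, 18.9% of those of genes at 1 unit or more in any library and 9.95% of all 32851 windows. The YY1 letters AAGATGGC were in 15.6%, 4.21% and 2.75%, and the GABPA letters CCGGAAG in 19.5%, 16.7% and 8.86%. TGACAG, the core of Meis and Prep sites, was in 24.7%, 16.7% and 19.2%, TGATTGAC, for Pbx with Meis or Prep, in 1.3%, 0.79% and 0.77%, and TGANTCA, for AP-1, in 9.09%, 5.48% and 7.81%. By group, TGACAG was in 21.3% of 61 subunit windows, 37.5% of 8 assembly factor windows and 75% of 4 tissue isoform windows. In the same order, NRF1 letters were in 36.1%, 25% and 0%, GABPA letters in 19.7%, 37.5% and 0%, and YY1 letters in 16.4%, 0% and 0%. TGATTGAC ends in TGAC, with which TGACAG begins, so matches of these 2 can overlap, and a match is a description, not a site. The median WT to EV ratio was -0.58 for 24 members with NRF1 letters and -0.41 for 43 without, -0.46 for 15 with TGACAG and -0.44 for 52 without, -0.46 for 15 with GABPA letters and -0.44 for 52 without, and -0.615 for 7 with AP-1 letters and -0.44 for 60 without. For YY1 the order was the opposite, at -0.38 for 11 with its letters and -0.47 for 56 without.

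The following stretches show, for each complex, a member with a low WT to EV ratio and an exon-free stretch in these windows. The assembly factor with the highest ratio is added, and matched letters are in capitals. All stretches are read 5′ to 3′ on the strand of the gene. Ndufa6 (complex I) lies on the minus strand at chr15:82354323-82354472, Sdhd (II) on the minus strand at chr9:50603850-50603909, Uqcrh (III) on the minus strand at chr4:116075072-116075221, Cox7b (IV) on the plus strand at chrX:106015550-106015699, Atp5o (V) on the minus strand at chr16:91931688-91931837 and Ndufaf7 on the plus strand at chr17:78937067-78937134.
Ndufa6: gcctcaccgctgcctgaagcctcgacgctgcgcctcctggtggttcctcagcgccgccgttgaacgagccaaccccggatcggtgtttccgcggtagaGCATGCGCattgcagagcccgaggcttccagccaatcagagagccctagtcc
Sdhd: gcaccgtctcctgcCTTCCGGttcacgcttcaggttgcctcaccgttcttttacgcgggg
Uqcrh: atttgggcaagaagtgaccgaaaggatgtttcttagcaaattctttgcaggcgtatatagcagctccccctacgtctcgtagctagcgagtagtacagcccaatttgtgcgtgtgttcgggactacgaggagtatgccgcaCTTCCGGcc
Cox7b: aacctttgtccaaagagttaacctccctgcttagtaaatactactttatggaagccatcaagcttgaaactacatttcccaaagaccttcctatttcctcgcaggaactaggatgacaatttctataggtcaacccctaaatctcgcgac
Atp5o: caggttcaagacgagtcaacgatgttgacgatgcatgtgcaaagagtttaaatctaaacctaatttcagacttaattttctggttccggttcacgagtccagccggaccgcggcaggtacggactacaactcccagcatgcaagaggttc
Ndufaf7: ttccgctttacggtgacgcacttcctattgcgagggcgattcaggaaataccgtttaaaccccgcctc
Capitals mark the NRF1 letters read on the other strand in Ndufa6, 83 bases before the start, and the GABPA letters read on the other strand in Sdhd, 46 before, and in Uqcrh, 10 before. The stretches of Cox7b, Atp5o and Ndufaf7 held none of the 6 motifs. Each stretch is only a part of a searched window, so a stretch without letters does not show that its window held none.

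In the authors' deposited table for WT against EV, on values that were not scaled, 67 of the 87 members were called lower, against 44.6% of all single-gene loci. There 68 members had the test status OK, 14 FAIL and 5 NOTEST. In the authors' deposited tables for the libraries labelled P and MP against EV, 66 members were called lower in each, against 43.3% and 41.2% of loci. All these calls carry the difference in level, as a whole, between the 2 libraries compared. On log2(FPKM + 1), the members' median deposited log2 ratio in WT against EV was -4.03, with all genes at -3.06. Against EV it was -3.93 for the library labelled P, with all genes at -3.23, and -4.03 for the library labelled MP, with all genes at -3.48.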

How the data were processed

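Total RNA of 5 MEF lines was sequenced on an Illumina platform, 1 library for each line, grouped by the labels. The authors deposited 4 tables of FPKM per locus (fragments per kilobase of transcript, scaled to mapped fragments, per the file headers), each setting EV against another library, with 61082 loci. The p-value and q-value deposited by the authors come from their test of 1 library against 1, with calls at a q-value under 0.05. TopHat, Cufflinks, Cuffdiff and mm9 are named by the submitters' processing notes, with versions, strand use and annotation not given in the sources used here. No counts are given, so depth is unknown, no counting interval could be made, and the tables hold no coordinates.

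Loci with 1 symbol (22894) were used, 1 for each symbol by the highest mean log2(FPKM + 1). Loci that join symbols (911) or have none (37277) were left out. Each library was divided by its upper quartile over the 22338 such loci at 1 FPKM or more in any library, and multiplied by 10. EV came from the table of M throughout, so only M against EV lay within a single table. All other comparisons were set across tables that may have been normalized separately. Genes at 1 unit or more in either library were kept, with a pseudocount of 1, which understates changes of low genes. Counts past 1.5-fold and 2-fold stand in for a test. The scaling and ratios were checked on simulated libraries, all built from the EV values with noise and known changes added. These have nearly the same distribution, which the real libraries do not, so the check does not cover differences in shape between libraries.

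Named genes were the 5 highest and 5 lowest members of a comparison, the lowest and highest of each complex by mean level, catalytic subunits, tissue isoforms, Ndufa4 and Ndufa4l2, and the extremes of each outside list; further members were named after their values were seen, and some results are not reported here. The members, lists and motifs were chosen with earlier results of these data known. Transcript lengths and overlaps came from GENCODE vM21 and promoters from RefSeq (GRCm38.p6), matched by symbol only, since the files use mm9. Alternatives were a pseudocount of 0.1, no filter or 5 units, other scalings, sums of loci and subunits only. Python 3.11.15, pandas 2.3.3, NumPy 2.4.6, SciPy 1.17.1 and matplotlib 3.10.9 were used.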

Additional observations from a re-analysis of the deposited data

Results flagged for a closer look

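The members' median differed in sign between M over EV and the library labelled MP over the library labelled P. M lay below EV (median -0.115 over the 79 members kept in all 4 libraries, or -0.114 over 80). The library labelled MP lay above the library labelled P (median 0.126). The gene-by-gene difference had a median of 0.269. With 1 library per group the difference was not tested. Over all genes, not matched for level or transcript length, the median difference was 0.039. With a mean of 10 units or more, the median of MP over P was 0.126 for 51 members and 0.12 for all genes. Below that level it was 0.143 for 28 members and -0.106 for all genes. The Pknox1 level, which went against the labels P and MP, was 25.6% of EV in the library labelled P and 26.3% in the library labelled MP, and its part in the difference was not tested.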

How the results depend on the processing

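No paired analysis was possible because each group held 1 library, and for the same reason no library could be left out. A median counted as unmoved within 0.1 on the log2 scale and a count within 1.5 times. Of 70 alternative medians of the members, 59 were unmoved, 7 moved and 4 turned direction. Of 70 alternative counts of members at least 1.5-fold apart, 40 were unmoved and 30 moved. On FPKM as deposited, the median was 1.309 for M over EV, -3.933 for P, -4.026 for MP and -4.033 for WT over EV, -5.381 for MP over M and -0.115 for MP over P, while all genes shifted by 1.262, -3.228, -3.476, -3.057, -5.102 and -0.204. Scaled to the median, it was 0.258 for MP over EV, -0.736 for WT over EV, 0.321 for MP over M, 0.496 for MP over P and -0.477 for WT over P, while all genes shifted by 0.357, -0.373, 0.33, 0.395 and -0.383.

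The count of members at least 1.5-fold apart was 0 for M over EV, 9 for P, 1 for MP and 27 for WT over EV, 0 for MP over M, 1 for MP over P and 1 for WT over P. On FPKM as deposited these became 86, 87, 87, 87, 83, 3 and 2. Scaled to the median they became 2 for MP over EV, 61 for WT over EV, 3 for MP over M, 29 for MP over P and 19 for WT over P. Quantile normalized they became 3 for P and 0 for MP over EV, 0 for MP over P and 2 for WT over P. With a pseudocount of 0.1 they became 1 for M and 2 for MP over EV, 1 for MP over M, 3 for MP over P and 2 for WT over P. With no filter on low values they became 1 for M and 3 for MP over EV, 1 for MP over M and 2 for WT over P. With 5 units or more, or with subunits only, they became 0 for MP over P and 0 for WT over P. With the joined loci included, the count became 2 for MP over P. That setting and a quartile over 1 row per symbol were chosen after seeing the data. All 7 counts were unmoved with that quartile and with the loci of a symbol summed. Depth is unknown.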
